A study of Mus musculus with 4 samples.

Results

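The UFM1 conjugation pathway is described here through the transcripts of 7 genes: Ufm1, Ufc1, Ufl1, Ddrgk1, Cdk5rap3, Ufsp1 and Ufsp2. The 7 rows were taken by gene symbol from the 31253 features of a droplet single-cell RNA-seq data set. No measured value entered that rule, but the members were chosen with earlier results of these data known. Immune cells (CD45+) had been sorted from subcutaneous tumours of MC38, a mouse colon adenocarcinoma line, in a study whose title speaks of losing Ufl1 from T cells. Of the 4 libraries, 2 came from Ufl1 cKO mice and 2 from WT mice. All mice were 8 weeks old when 100000 MC38 cells were injected, tumours were taken 16 days later, and no group received another treatment. Digested tumour cells were frozen before library preparation. No label states which Cre was used or which exons were lost, nor if a library stands for 1 mouse. The p-values below therefore measure the spread between libraries.

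UFM1 is a small ubiquitin-like protein that is attached to lysines of target proteins by a cascade of its own. It is made as a precursor that the proteases Ufsp1 and Ufsp2 trim to expose its terminal glycine, then carried by the E2 enzyme Ufc1 and transferred by the ligase Ufl1. Ufl1 works in a complex with Ddrgk1, which anchors it at the endoplasmic reticulum membrane, and Cdk5rap3, which binds the complex and bears on substrate choice. Ufsp2 also removes UFM1 from targets. The best known target is the ribosomal protein Rpl26 on ribosomes docked at the endoplasmic reticulum, and the pathway is best known for work on stalled secretory translation and on turnover of that membrane.

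Promoter sequence is shown for 3 members that the results turn on: Ufsp2, whose level differed most between cell types; Ddrgk1, whose order of cell types differed from that of the other members; and Ufl1, the targeted gene. Each line gives 120 bases before and 30 bases after the RefSeq start on GRCm38.p6, read 5′ to 3′ on the strand of the gene. Capitals in the Ufsp2 line mark the cAMP response element TGACGTCA, which begins 7 bases before the start, and the ETS site CCGGAAG on the opposite strand, which follows it without overlap.
Ufsp2: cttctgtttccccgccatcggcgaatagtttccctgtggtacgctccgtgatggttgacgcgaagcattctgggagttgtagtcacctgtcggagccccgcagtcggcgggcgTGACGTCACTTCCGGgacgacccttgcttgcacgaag
Ddrgk1: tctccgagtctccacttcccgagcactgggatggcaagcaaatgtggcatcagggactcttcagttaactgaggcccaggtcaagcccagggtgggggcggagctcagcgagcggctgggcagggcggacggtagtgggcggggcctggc
Ufl1: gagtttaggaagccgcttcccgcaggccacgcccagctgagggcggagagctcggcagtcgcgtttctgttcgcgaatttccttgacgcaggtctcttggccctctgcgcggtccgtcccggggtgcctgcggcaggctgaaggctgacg

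The Ufsp2 stretch is chr8:45975408-45975557 on the plus strand, the Ddrgk1 stretch chr2:130664616-130664765 on the minus strand and the Ufl1 stretch chr4:25281792-25281941 on the minus strand. Both strands of the 300-base windows of all 32851 RefSeq promoters were searched for 4 motifs. TGACGTCA was in 1.79% of them, the ATF6 and XBP1 core TGACGTG in 2.01%, the PU.1 site GAGGAAGT in 3.20% and CCGGAAG in 8.86%. Among the members, Ufsp2 held TGACGTCA and CCGGAAG, 1 of 2 Cdk5rap3 windows held CCGGAAG, and the Ufl1 window held TGACGTG, which runs past the end of the printed stretch. No letters of the 4 motifs were found in the windows of Ufm1, Ufc1, Ufsp1 and Ddrgk1. These matches describe the letters of the windows only. In GENCODE M21 on GRCm38 the protein-coding genes lie at chr1:171288563-171295024 (Ufc1, minus strand), chr2:130653960-130664659 (Ddrgk1, minus), chr3:53853376-53863830 (Ufm1, minus), chr4:25248600-25281821 (Ufl1, minus), chr5:137294629-137295665 (Ufsp1, plus), chr8:45975528-45996958 (Ufsp2, plus) and chr11:96907426-96916496 (Cdk5rap3, minus).

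Single cells were assigned to types by UMIs (unique molecular identifiers, 1 per captured transcript) of marker genes that hold no member of the pathway, such as Cd3e, Cd3d and Cd3g for T cells and C1qa, C1qb and C1qc for macrophages. The libraries held 64141857 to 79747752 UMIs, and of 32396 cells kept 19629 (60.6%) met exactly 1 gate. The gate contrasts used 13 gates, each with at least 20 cells in every library. A further gate, other T cells, held 143 and 314 cells in cKO and 183 and 354 cells in WT. It was left out of the gate contrasts, but its cells are among all T cells below. Of 39 markers not used in gating, 32 were highest in the gate they mark. WT replicate 1 and cKO replicate 2 shared 479 barcodes, against 85 to 104 for the other pairs, and 385 of the 479 had under 1000 UMIs in 1 of the libraries. Leaving out all shared barcodes removed 835 gated cells. cKO replicate 2 held 297 CPM of Xist and 12 UMIs of Ddx3y, whereas the other 3 libraries held at most 0.906 CPM of Xist and at least 3262 UMIs of Ddx3y. The cKO libraries thus differ from each other in these sex-linked transcripts, and no WT library matches cKO replicate 2. The part of this difference in the values of cKO replicate 2, and so in cKO against WT, was not tested. Each gate set an upper limit on marker UMIs of the other lineages, and no doublet caller was run.

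Counts were summed per library and gate, scaled with TMM and expressed as CPM, counts per unit of scaled library size, and tested with edgeR's quasi-likelihood test at a Benjamini-Hochberg adjusted p of 0.05 over all genes. The first comparison asked where in the tumour's immune compartment each step of the cascade is transcribed. Highest and lowest gates are named by the mean over the 4 libraries, and most neighbouring gates in that order overlapped. Ufm1, the modifier itself, was highest in cDC1 (conventional type 1 dendritic cells), at 88.2 and 86.1 CPM in the cKO libraries and 118 and 112 CPM in the WT libraries. It was lowest in conventional CD4 T cells, at 44.8 and 41.6 CPM in the cKO libraries and 54.8 and 31.7 CPM in the WT libraries. The cDC1 and CD4 values did not overlap. Classical monocytes followed cDC1 with 96.7 ± 2.55 CPM (SD, n = 4 libraries), but were above cDC1 in both cKO libraries, at 99.8 and 97.7 CPM. Treg cells stood just above conventional CD4 T cells with 50.8 ± 9.10 CPM. Against the mean of the other gates, Ufm1 was higher in cDC1 (log2 difference 0.51 ± 0.10 SE, adjusted p = 5.02e-05) and lower in conventional CD4 T cells (−0.85 ± 0.11, adjusted p = 6.6e-09). Classical monocytes, cDC2, macrophages and non-classical monocytes were also higher. CD8 T cells (−0.40 ± 0.08) and Treg cells (−0.57 ± 0.12) were lower as well.

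Ufc1, the E2 enzyme, had its highest mean in pDC (plasmacytoid dendritic cells). These held 111 and 123 CPM in cKO and 107 and 132 CPM in WT. Their range overlapped that of classical monocytes, and pDC were the highest gate only in cKO replicate 1. Classical monocytes were above pDC in cKO replicate 2 (124 CPM) and WT replicate 2 (137 CPM). In WT replicate 1, non-classical monocytes (116 CPM), macrophages (111 CPM) and cDC1 (108 CPM) were above pDC. B cells had the lowest mean, with 43.8 and 67.9 CPM in cKO and 60.4 and 68.1 CPM in WT, though conventional CD4 T cells were lower in WT replicate 2 (65.2 CPM). Every pDC library thus lay above every B-cell library. The difference from the other gates was 0.38 ± 0.09 in pDC (adjusted p = 0.000482) and −0.66 ± 0.09 in B cells (adjusted p = 3.66e-08). Macrophages, classical monocytes and non-classical monocytes were also higher, by 0.34, 0.33 and 0.30 on the log2 scale. The 4 T-cell gates were all lower, between −0.36 and −0.16.

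Ufl1, the ligase and the gene targeted in the mice, was captured sparsely, with 3036 UMIs over the 13 gates. It was highest in cDC1, with 20.7 and 34.1 CPM in cKO and 18.0 and 26.8 CPM in WT from 69 UMIs in all. It had its lowest mean in conventional CD4 T cells, with 7.85 and 16.9 CPM in cKO and 9.35 and 8.16 CPM in WT. Gamma-delta T cells were lower in cKO replicate 1 (5.54 CPM) and Treg cells in WT replicate 1 (7.95 CPM). In cKO replicate 2, CD8 T cells (15.9 CPM) and migratory DC (16.7 CPM) were lower. Above cDC1 in WT replicate 1 lay gamma-delta T cells (25.5 CPM), classical monocytes (18.8 CPM) and B cells (18.1 CPM). The lower level in conventional CD4 T cells passed the test (−0.78 ± 0.20, adjusted p = 0.000901). The gate contrasts pooled cKO and WT libraries, and none was run on WT libraries alone. The higher levels in cDC1 (0.52 ± 0.19, adjusted p = 0.0223) and in classical monocytes (0.25 ± 0.10, adjusted p = 0.026) passed too, but the cDC1 call was lost under 5 of its 11 alternatives (adjusted p from 0.016 to 0.138, the highest without the low-count filter), WT replicate 2 and both cKO libraries among those left out. The classical monocyte call was lost under 4 of 12 (adjusted p from 0.00625 to 0.691, the highest with library totals), among them without WT replicate 1 and without cKO replicate 1. The remaining 10 gates ranged from 13.02 ± 5.08 CPM in Treg cells to 21.0 ± 9.04 CPM in pDC and did not pass the test against the others.

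Ddrgk1, the membrane anchor of the ligase, followed another order. Macrophages had the highest mean, with 96.3 and 80.4 CPM in cKO and 84.6 and 105 CPM in WT. Their range overlapped that of pDC, next at 89.5 ± 17.4 CPM, and pDC were higher in WT, at 90.4 and 112 CPM. Migratory DC, dendritic cells marked by Ccr7, were lowest, with 55.6 and 29.3 CPM in cKO and 41.6 and 57.4 CPM in WT, and cDC1 were next with 49.7 ± 9.31 CPM. Those 2 gates stood apart from the third lowest, non-classical monocytes, at 63.2 to 75.3 CPM. The difference from the other gates was −0.73 ± 0.16 in migratory DC (adjusted p = 0.000142) and −0.55 ± 0.13 in cDC1 (adjusted p = 0.000571). It was 0.37 ± 0.07 in macrophages (adjusted p = 1.84e-06), 0.35 ± 0.12 in pDC and 0.29 ± 0.10 in conventional CD4 T cells, the gate in which Ufm1 and Ufl1 were lowest.

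Cdk5rap3, the other partner of the ligase, was highest in pDC, with 71.6 and 43.9 CPM in cKO and 57.5 and 47.7 CPM in WT. Gamma-delta T cells had the lowest mean, with 19.4 and 12.5 CPM in cKO and 23.5 and 22.5 CPM in WT. All 12 pairs of neighbouring gates in the order overlapped. cDC1 were above pDC in cKO replicate 2 (64.1 CPM) and WT replicate 2 (48.6 CPM). Below gamma-delta T cells lay migratory DC in cKO replicate 1 (16.9 CPM), conventional CD4 T cells in WT replicate 1 (13.4 CPM) and B cells in WT replicate 2 (12.9 CPM). The pDC level was 2.03-fold that of the other gates (95% interval 1.62 to 2.53, adjusted p = 5.66e-07). cDC1 (0.55 ± 0.16) and cDC2 (0.48 ± 0.11), the other conventional dendritic cells, were higher as well, and so were NK cells (0.24 ± 0.08, adjusted p = 0.00881). Conventional CD4 T, gamma-delta T, B cells and non-classical monocytes were lower, between −0.59 and −0.29.

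Ufsp2, the protease that matures UFM1 and removes it from targets, separated the cell types most. Macrophages held 49.9 and 47.7 CPM in cKO and 44.8 and 46.0 CPM in WT, and classical monocytes 47.6 and 49.4 CPM in cKO and 41.7 and 41.1 CPM in WT. Gamma-delta T cells held 5.54 and 23.2 CPM in cKO and 7.83 and 9.36 CPM in WT, from 24 UMIs, and CD8 T cells 14.2 and 12.4 CPM in cKO and 10.7 and 16.2 CPM in WT. The highest gate averaged 4.10 times the lowest, against 1.97 to 2.83 times for the other 5 members that could be tested. The lowest gate, gamma-delta T cells, rests on few UMIs, and its mean on cKO replicate 2, without which its log2 difference from the other gates was −1.54, against −0.92 with all libraries. In the order of gates, macrophages, classical monocytes, cDC2 and non-classical monocytes each overlapped the next, all 4 stood apart from cDC1 (28.1 to 34.1 CPM), and cDC1 stood apart from migratory DC (14.9 to 26.6 CPM). The other neighbours overlapped down to gamma-delta T cells. Ufsp2 was higher in macrophages (2.26-fold, 95% interval 2.06 to 2.49, adjusted p = 9.9e-21), classical monocytes (2.15-fold), cDC2 (2.13-fold) and non-classical monocytes (1.83-fold). cDC1 were higher as well (1.41-fold, adjusted p = 0.00825). NK, B, CD8 T, conventional CD4 T and gamma-delta T cells were lower, between −0.92 and −0.66, and pDC was lower too (−0.64 ± 0.21, adjusted p = 0.0156).

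Ufsp1, the second protease, gave 154 UMIs in the 13 gates and did not pass the low-count filter between gates. Raw CPM ranged from 0 in gamma-delta T cells to 1.39 in migratory DC, where 3 UMIs were counted. Macrophages had the most UMIs, 50, with 0.798 and 1.59 CPM in cKO and 1.04 and 1.60 CPM in WT. At this depth no order of cell types could be read for Ufsp1.

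**Figure D1:**
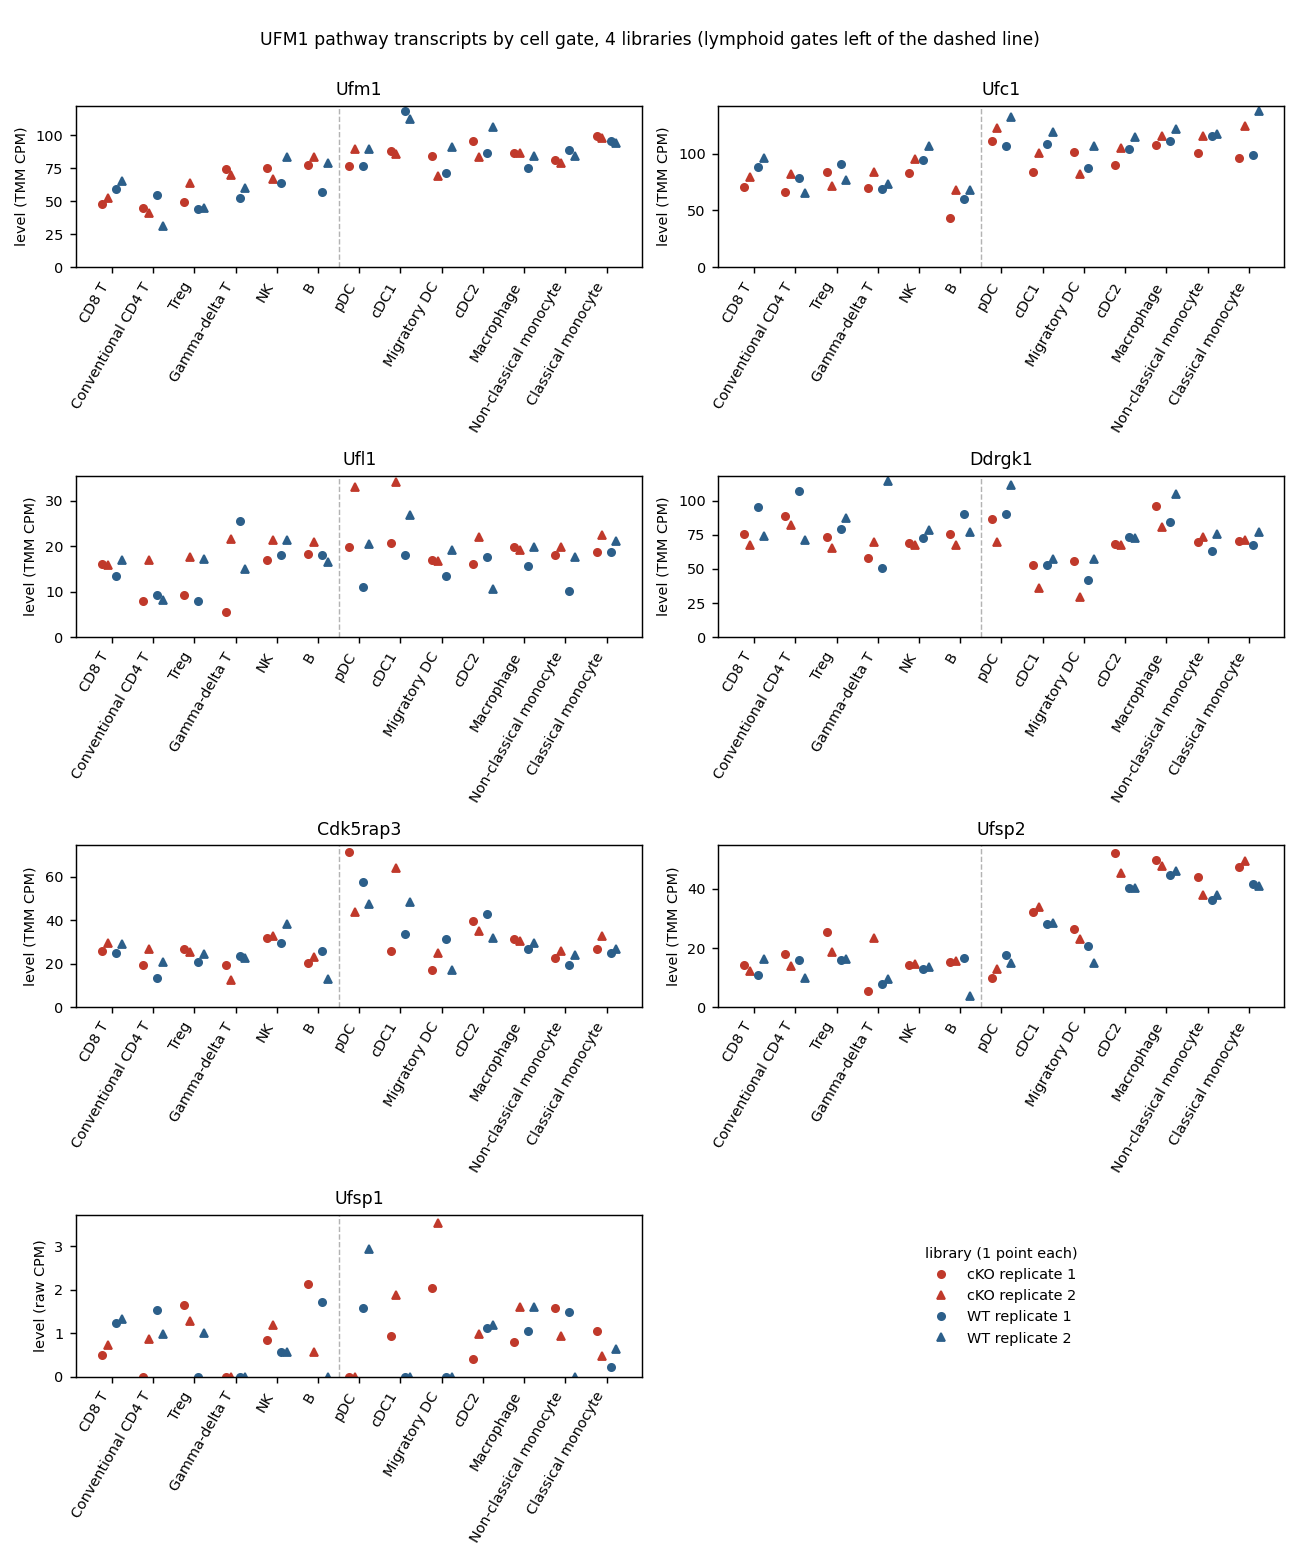
Level of each member (y axis, TMM CPM; raw CPM for Ufsp1) in 13 cell gates (x axis), with 1 point for each cKO (red, left) and WT (blue, right) library and a dashed line between lymphoid and myeloid gates. Ufsp2 stands at 36.3 to 52.3 CPM in macrophages, both monocyte gates and cDC2 and at 3.68 to 25.4 CPM in the lymphoid gates.

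Counts of members per gate are to be read against the background, since cell types differ in most genes. All 6 tested members passed in conventional CD4 T cells, where 46.9% of 10548 genes did, and 5 in cDC1 (background 45.5%). There were 4 each in pDC (41.1%), cDC2 (50.6%), macrophages (66.9%), non-classical monocytes (64.5%) and classical monocytes (67.4%). CD8 T cells (61.3%), gamma-delta T cells (37.3%) and B cells (52.4%) had 3 each, Treg cells (42.5%) and NK cells (63.9%) had 2 each, and migratory DC (49.2%) had 1. Over the 13 gates, 45 of 78 gate contrasts passed, where 37.3% to 67.4% of all genes passed in a single gate. The 78 contrasts are not independent, since each gate is part of the mean that the other gates are set against. In conventional CD4 T cells 1 member was higher and 5 were lower, where 26.1% of genes were higher and 20.9% lower.

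**Figure D2:**
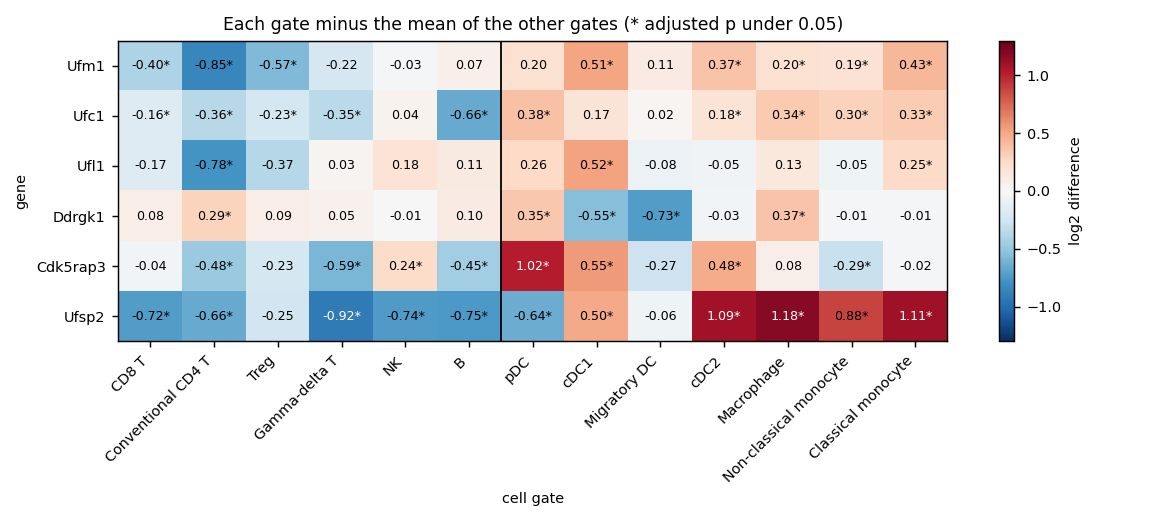
Log2 difference of each gate from the mean of the other gates (colour and printed value) for 6 members (rows) in 13 gates (columns), edgeR on 4 libraries, with an asterisk where the adjusted p is under 0.05. Ufsp2 runs from 1.18 in macrophages to −0.92 in gamma-delta T cells, and Ddrgk1 is lowest in migratory DC at −0.73.

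Lymphoid gates (CD8 T, conventional CD4 T, Treg, gamma-delta T, NK and B) were then set against myeloid gates (pDC, cDC1, migratory DC, cDC2, macrophages and both monocyte gates). All 6 tested members passed, 1 higher and 5 lower in lymphoid gates, where 74.2% of genes passed, 38.0% higher and 36.1% lower. Ufsp2 averaged 14.2 ± 2.19 CPM in lymphoid and 34.5 ± 2.56 CPM in myeloid gates (SD, n = 4 libraries), a log2 difference of −1.16 ± 0.09 (adjusted p = 6.62e-17). Ufm1 averaged 60.3 ± 3.32 CPM in lymphoid and 88.5 ± 4.30 CPM in myeloid gates (−0.57 ± 0.05), and Ufc1 77.6 ± 5.47 CPM in lymphoid and 108 ± 9.57 CPM in myeloid gates (−0.49 ± 0.04). Cdk5rap3 was lower by a log2 difference of −0.44 ± 0.08 and Ufl1 by −0.28 ± 0.10 (adjusted p = 0.00675). For Ufl1 the lymphoid and myeloid means were 15.4 and 14.9 CPM in WT replicate 1 and 15.8 and 19.4 CPM in WT replicate 2. In cKO replicate 1 they were 12.3 and 18.6 CPM, and in cKO replicate 2 19.0 and 23.9 CPM. The contrast pooled both genotypes, though Ufl1 is the targeted gene, and was not run on WT libraries alone. Ddrgk1 was higher, with 77.5 ± 6.85 CPM in lymphoid and 69.9 ± 7.65 CPM in myeloid gates (0.17 ± 0.06, adjusted p = 0.00529). This did not hold for every myeloid gate. The means of macrophages (91.6 CPM) and pDC (89.5 CPM) lay above those of all lymphoid gates (71.9 to 87.5 CPM). Those of the other myeloid gates lay below, from 46.0 CPM in migratory DC and 49.7 CPM in cDC1 to 71.4 CPM in classical monocytes.

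The scaling sets part of these values. With library totals in place of TMM the median of all genes moved by 0.27 towards lymphoid gates, and 67.7% of the calls were higher in lymphoid gates, against 51.3% with TMM. Ufl1 then differed by −0.01 (adjusted p = 0.965) and Cdk5rap3 by −0.17 (adjusted p = 0.0578), while Ufsp2, Ufm1 and Ufc1 stayed lower and Ddrgk1 higher. Relative to the median of all genes, 0.31 with totals and 0.03 with TMM, all 5 lower members lay below it under both scalings. Ufl1 also missed the threshold with stricter gates (−0.23, adjusted p = 0.0748) and without cKO replicate 1 (−0.20, adjusted p = 0.0956).

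Depth per cell differed between gates, from medians of 2947 to 3617 UMIs in B cells to 12475.5 to 15764 UMIs in cDC1. Cells were therefore thinned to 2000 UMIs before detection was compared. A Ufsp2 UMI was then found in 9.07 ± 0.75% of macrophages, 7.60 ± 0.68% of classical monocytes, 6.21 ± 1.01% of non-classical monocytes and 6.51 ± 1.40% of cDC2 (SD, n = 4 libraries). In lymphoid gates the share was 2.04 ± 0.40% of CD8 T cells, 3.05 ± 0.58% of NK cells and 2.23 ± 1.25% of B cells. Macrophages and classical monocytes did not overlap CD8 T, NK or B cells in any library. Without thinning the shares were 29.5% of macrophages and 11.9% of CD8 T cells. Free RNA may add a low count to cells. Lyz2, which was highest in classical monocytes, stood at 82.0 to 221 CPM in lymphoid gates, against 5583 to 12544 CPM in macrophage and monocyte gates. The source of the Lyz2 counts in lymphoid gates was not tested. The part of free RNA in the Ufsp2 shares was not tested. A further limit is that 57 bases at the end of Ufsp2 overlap Ankrd37 on the other strand. Ankrd37 was counted at 6.76 raw CPM in migratory DC, where it was lowest, and at 38.4 raw CPM in classical monocytes, where it was highest, and its part in the Ufsp2 values was not tested.

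**Figure D3:**
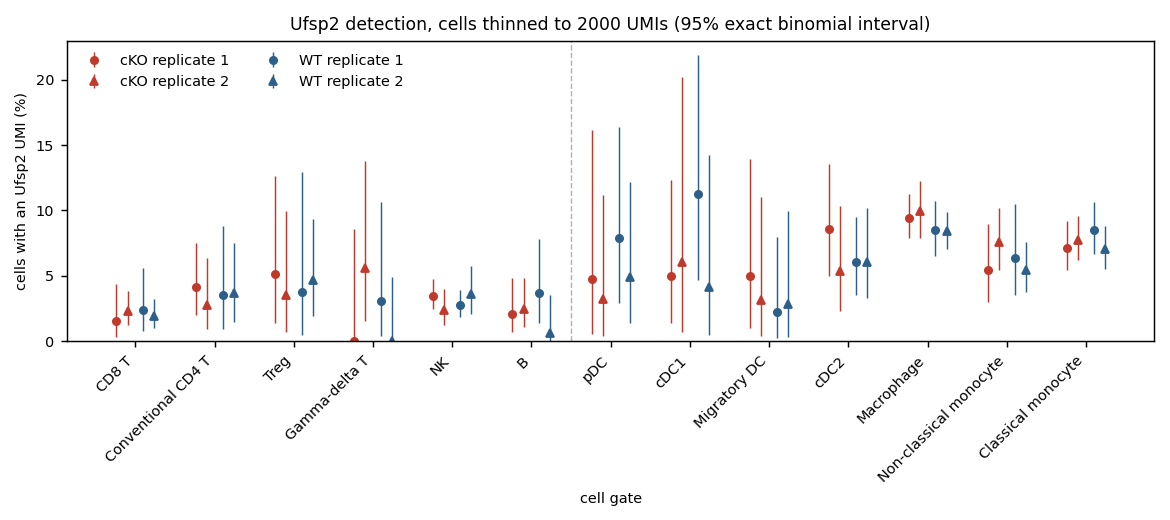
Share of cells with at least 1 Ufsp2 UMI (y axis, percent) after thinning each cell to 2000 UMIs, by gate (x axis) and library, with 95% exact binomial intervals for counting error. Macrophages lie at 8.41% to 9.93% and CD8 T cells at 1.53% to 2.43%, and gates with few cells have wide intervals.

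The patterns across gates were not alike. Over the 13 gate means, which share libraries and depth, Ufm1 and Ufc1 had a Pearson correlation of 0.66, Ufc1 and Ufsp2 of 0.69, and Ufc1 and Cdk5rap3 of 0.66. Ddrgk1 correlated with Ufm1 at −0.40 and with Ufsp2 at −0.18. No member was among the genes closest to another: of 5705 genes ranked by likeness to Cdk5rap3, Ufc1 had rank 176, and the other ranks of one member for another were between 448 and 4820. The closest genes to Ufsp2 were Ralb, a small GTPase (0.98), Capza2, which caps actin filaments (0.97), and Atf3, a stress-induced transcription factor (0.97). Those closest to Ufm1 were Cuedc2, Ost4 and Ik (0.93, 0.93 and 0.91), to Ufc1 Ccl4, Uqcrq and Cope (0.95, 0.94 and 0.93), to Cdk5rap3 Glrx3, Caprin1 and U2af1 (0.93, 0.93 and 0.91), and to Ddrgk1 Tgfbr2, Tceal9 and Tmx4 (0.88, 0.84 and 0.84). With a mean of under 20 CPM, Ufl1 was left out of this ranking.

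The second comparison asked whether the genotype shows in the transcripts, first in T cells, where the title places the ablation. Ufl1 had 79 and 193 UMIs in 714 and 1243 T cells of the cKO libraries, and 65 and 183 UMIs in 634 and 1473 T cells of the WT libraries. This made 14.4 and 19.1 CPM in cKO and 15.2 and 17.2 CPM in WT. The cKO libraries lie on either side of the WT libraries. The log2 difference of cKO from WT was 0.06 ± 0.21, and the 95% interval of the fold ran from 0.741 to 1.46, so that a level under 0.741 of WT lies outside it. Without cKO replicate 2 the log2 difference was −0.18, and without WT replicate 1 it was −0.04. In CD8 T cells Ufl1 had 17.9 and 17.3 CPM in cKO and 15.01 and 18.5 CPM in WT (0.03 ± 0.23, interval of the fold 0.701 to 1.49). The protocol names a kit that reads the 3′ end, while 80.7% of T-cell receptor UMIs in T cells lay on variable or joining segments. Since the removed exons are not given and such reads cover 1 end of the transcript, UMIs from the part that was not removed would still be counted, and these values do not check whether the exons were deleted.

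In the smaller T-cell gates the counts were low. Conventional CD4 T cells had 8.89 and 18.9 CPM of Ufl1 in cKO and 10.5 and 9.19 CPM in WT (0.46 ± 0.51). Treg cells had 11.4 and 21.1 CPM in cKO and 9.88 and 20.1 CPM in WT (0.06 ± 0.54), and gamma-delta T cells 6.53 and 23.8 CPM in cKO and 29.1 and 16.2 CPM in WT (−0.43 ± 0.66). In each of these gates the genotypes overlapped, and leaving out 1 library turned the direction of Ufl1 in all 3.

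**Figure D4:**
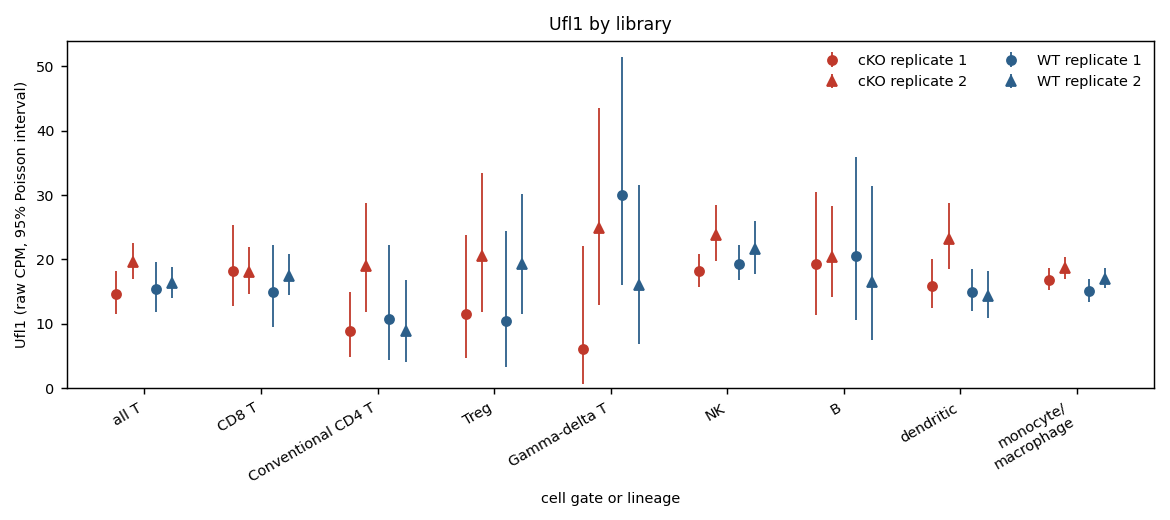
Ufl1 level (y axis, raw CPM) in all T cells, 4 T-cell gates and 4 other lineages (x axis) for each cKO (red, left) and WT (blue, right) library, with 95% Poisson intervals for counting error. In all T cells the 4 libraries lie between 14.7 and 19.6 CPM with overlapping intervals.

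The other members in T cells gave no call either. In edgeR 0 of 6 tested members passed (background 0.0% of 11102 genes), none had an unadjusted p under 0.05, and DESeq2 called 0 members. Ufm1 had 58.9 and 59.6 CPM in cKO and 61.3 and 63.4 CPM in WT (−0.07 ± 0.13). Ufc1 had 80.3 and 84.9 CPM in cKO and 92.4 and 97.99 CPM in WT (−0.21 ± 0.13). For these 2 genes both cKO libraries lay below both WT libraries, which held for 28.9% of genes in 1 direction or the other. Ddrgk1 (−0.16 ± 0.15), Cdk5rap3 (−0.05 ± 0.16) and Ufsp2 (0.21 ± 0.22) overlapped between genotypes, and Ufsp1 had 3 and 7 UMIs in cKO and 3 and 13 UMIs in WT. The interval of the fold was 0.704 to 1.07 for Ufc1, 0.764 to 1.18 for Ufm1, 0.75 to 1.25 for Cdk5rap3 and 0.808 to 1.66 for Ufsp2.

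Within CD8 T cells, 0 of 6 members passed (background 0.0% of 9958 genes). Ufm1 had 53.7 and 57.5 CPM in cKO and 66.3 and 71.2 CPM in WT (−0.31 ± 0.16, unadjusted p = 0.0946), and Ufc1 79.1 and 86.2 CPM in cKO and 97.6 and 104 CPM in WT (−0.29 ± 0.16, unadjusted p = 0.104). Both genes again had the cKO libraries below the WT libraries, as 29.6% of genes did in either direction. In conventional CD4 T cells 0 of 6 members passed (background 0.113% of 7956 genes), in Treg cells 0 of 6 (background 0.0%) and in gamma-delta T cells 0 of 5 (background 0.0%). edgeR gave no unadjusted p under 0.05 for a member in these gates, and DESeq2 called none.

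Outside T cells the members did not pass either. NK cells (0 of 6), B cells (0 of 6), dendritic cells (0 of 6) and monocytes with macrophages (0 of 7) all had a background of 0.0%, no member with an unadjusted p under 0.05 and 0 members called by DESeq2. In dendritic cells Ufl1 had 16.3 and 22.4 CPM in cKO and 14.9 and 14.7 CPM in WT (0.38 ± 0.21, unadjusted p = 0.104). The groups did not overlap there for Ufl1 and Ufsp2, which were above WT in cKO, nor for Ufc1 and Ddrgk1, which were below, against 31.9% of genes. In monocytes with macrophages Ufsp2 had 42.6 and 41.2 CPM in cKO and 37.6 and 37.8 CPM in WT (0.15 ± 0.12), and Ufm1 and Cdk5rap3 also lay above WT in both cKO libraries, against 29.3% of genes. In NK cells Ufsp2 lay above and Ddrgk1 below, against 34.5% of genes, and in B cells Ufm1 and Ufl1 lay above, against 30.2%. Scaled as between gates, Ufm1 overlapped between genotypes in B cells. The cKO effect on Ufl1 in T cells minus that in monocytes with macrophages was −0.12 ± 0.22 (interval of the ratio of folds 0.658 to 1.29), and 0 of 7 members passed this test of the difference in edgeR (background 0.0% of 12624 genes), with 0 at an unadjusted p under 0.05 and 0 in DESeq2.

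**Figure D5:**
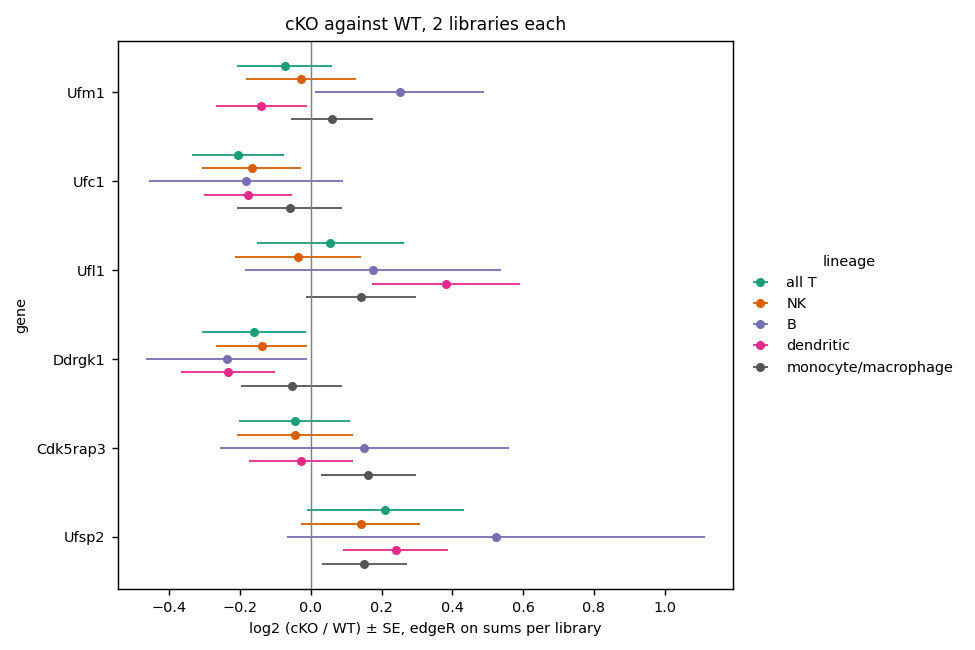
Log2 ratio of cKO to WT (x axis, point and SE from edgeR on sums per library) for 6 members (y axis) in 5 lineages (colours). Ufc1 and Ddrgk1 lie left of 0 and Ufsp2 lies right of 0 in all 5 lineages, Ufl1 lies between −0.04 and 0.38, and no value passed the adjusted threshold.

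The same libraries were used in each lineage, so that a direction shared by lineages is not independent evidence. In the 13 gates taken singly, both cKO libraries lay above both WT libraries for Ufsp2 in 8 gates and below in 1, and the genotypes overlapped in 4. Of 10548 genes, 0.389% lay above in at least 8 gates, and in a single gate 11.4% to 17.4% did. Ddrgk1 lay below in 5 gates and above in 0, and 7.63% of genes lay below in at least 5. The genotypes overlapped in 5 to 11 gates for the members other than Ufsp2. These counts are over gates of the same 4 libraries and are no test.

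The series title concerns PD-1, the checkpoint receptor encoded by Pdcd1, so CD8 T cells with at least 1 Pdcd1 UMI (994 cells) were set against those with none (701 cells) within each library. This split was added after the data had been seen. The level passed in 0 of 6 members (background 10.1% of 8609 genes), edgeR gave no member an unadjusted p under 0.05 and DESeq2 called 0. Ufm1 was higher in Pdcd1-positive cells in 4 of 4 libraries, with 63.3 ± 7.53 CPM in positive and 57.4 ± 9.72 CPM in negative cells (0.13 ± 0.11, adjusted p = 0.567). Ufl1 was higher in 3 of 4 libraries, with 17.4 ± 2.54 CPM in positive and 15.6 ± 1.19 CPM in negative cells (0.23 ± 0.21, adjusted p = 0.583, interval of the fold 0.85 to 1.62).

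Cells with at least 2 UMIs of Mki67 and Top2a, which mark cycling cells, were set against cells with none, also after the data had been seen. In monocytes and macrophages, 2 of 6 members passed (background 43.0%). Ufm1 had 65.2, 51.1, 44.3 and 61.4 CPM in the 531 cycling cells of cKO replicates 1 and 2 and WT replicates 1 and 2, and 84.5, 84.2, 80.9 and 81.1 CPM in the 8340 non-cycling cells. No library overlapped, and the log2 difference was −0.55 ± 0.10 (adjusted p = 0.000255). Ufl1 had 11.2 ± 5.88 CPM in cycling and 17.6 ± 1.71 CPM in non-cycling cells (−0.56 ± 0.22, adjusted p = 0.0462), was lower in 3 of 4 libraries and missed the threshold under 8 of 12 alternatives. In T cells 1 of 6 members passed (background 36.5%). That was Ufsp2, with 19.3 ± 4.69 CPM in 613 cycling and 14.7 ± 3.34 CPM in 2894 non-cycling T cells (0.42 ± 0.15, adjusted p = 0.047), higher in 4 of 4 libraries. The adjusted p was 0.326 with DESeq2 and reached 0.196 without cKO replicate 2. Ufm1 did not pass in T cells, with 58.9 ± 10.6 CPM in cycling and 63.0 ± 3.60 CPM in non-cycling cells (−0.06 ± 0.11).

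Other genes of the pathway were described from a list of 9: Odr4, which anchors Ufsp2 at the endoplasmic reticulum, the reported targets or substrate-side genes Trip4, Cyb5r3, Rpl26, Rpl10, Rps3 and Rpn1, the translocon subunit Sec61b, and Saysd1, which binds modified ribosomes. In T cells 0 of 9 passed in cKO against WT, 2 were above 0 and 7 below, and their median was −0.14, against 0.01 for all genes, and in edgeR none of all genes passed. Rpn1, an oligosaccharyltransferase subunit, had 70.8 and 77.9 CPM in cKO and 92.6 and 86.5 CPM in WT (−0.27 ± 0.13), and Cyb5r3, Rpl10, Rps3 and Sec61b also had both cKO libraries below both WT libraries. The genotypes thus did not overlap for 5 of the 9 genes, against 28.9% of all genes in either direction. The values for Odr4, Saysd1, Trip4 and Rpl26 were −0.03 ± 0.21, 0.04 ± 0.17, 0.16 ± 0.22 and −0.14 ± 0.14.

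Between lymphoid and myeloid gates 7 of these 9 genes passed, 2 higher and 5 lower in lymphoid gates, where 74.2% of all genes passed, 38.0% higher and 36.1% lower, a share near that of the list. Cyb5r3 (−0.99 ± 0.07), Sec61b (−0.83 ± 0.04), Odr4 (−0.34 ± 0.10), Rpl10 (−0.27 ± 0.04) and Rpn1 (−0.26 ± 0.07) were lower, and Rps3 (0.36 ± 0.03) and Trip4 (0.26 ± 0.11) were higher. Saysd1 and Rpl26 did not pass, at −0.09 ± 0.10 and −0.04 ± 0.04. Odr4, the partner of Ufsp2, was highest in macrophages (24.4 ± 2.02 CPM), as was Ufsp2. It was lowest in cDC1 (10.4 ± 1.89 CPM), where Ufsp2 was higher than in the mean of the other gates.

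Processes next to the pathway were given by 3 further lists. Of 7 receptors for selective autophagy of the endoplasmic reticulum, 5 were higher and 0 lower in lymphoid than in myeloid gates, where 38.0% of all genes were higher and 36.1% lower. Of 19 tested targets and sensors of the unfolded protein response 3 were higher and 16 lower, and of 20 genes of other ubiquitin-like systems 6 were higher and 11 lower, to be read against the same shares of all genes. The median log2 differences of the 3 lists were 0.36, −0.53 and −0.16, against 0.03 for all genes. In cKO against WT T cells edgeR called 0 genes of these lists, among 0.0% of all genes, with medians of 0.03, 0.01 and −0.06 for the 3 lists, against 0.01 for all genes. Ube2l6, the E2 enzyme of ISG15, had 84.5 and 100.1 CPM in cKO and 59.9 and 77.2 CPM in WT (0.42 ± 0.17, unadjusted p = 0.041, adjusted p = 1.00). Xbp1, a transcription factor of the unfolded protein response, had 115 and 103 CPM in cKO and 93.8 and 92.5 CPM in WT (0.22 ± 0.13), and Herpud1 84.1 and 84.3 CPM in cKO and 107 and 93.4 CPM in WT (−0.25 ± 0.14). Urm1, Calcoco1 and Atl3 differed by −0.25 ± 0.15, 0.27 ± 0.23 and −0.11 ± 0.14.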

How the data were processed

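Of the single-cell libraries of CD45+ tumour-infiltrating cells, 2 came from Ufl1 cKO and 2 from WT mice. They were analysed from the deposited count matrices, which hold whole UMI counts per gene and cell made with Cell Ranger 6.1.1, per the file headers. CASAVA 1.8 and Seurat are named in the submitters' processing notes, and the annotation used is not given in the sources used here. Cells with under 300 genes or over 15% mitochondrial UMIs were removed. Cells were gated by marker UMIs, and 13 gates with 20 or more cells in every library were used. The gate of other T cells also met this limit, but was left out of the gate contrasts and counted among all T cells. Counts were summed per library and gate and tested with edgeR 4.0.16 (quasi-likelihood, TMM, low-count filter, Benjamini-Hochberg over all genes) in R 4.3.3, with the library as a block between gates and in splits. DESeq2 1.42.0, other scalings, filters and gates, and leaving out each library were alternatives, and the scripts were tested on simulated data. Poisson and exact binomial intervals (95%) cover counting error only. Python 3.11.15 was used otherwise. Named genes were the members, the other UFM1 genes, the 2 genes of each further list with the smallest unadjusted p in T cells, and the 3 genes most alike per member; other gate values of list genes were chosen after they were seen. A gene of the list of other UFM1 genes is not reported here, and that list's counts leave it out. The members and lists were chosen with earlier results of these data known. Loci follow GENCODE M21, in which 31107 of 31253 feature IDs were found, and promoters follow RefSeq on GRCm38.p6.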

Additional observations from a re-analysis of the deposited data

Results flagged for a closer look

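In 6 cases both cKO libraries lay on one side of both WT libraries in one cell set and on the opposite side in another. This count uses values scaled as for the tests of cKO against WT. Such opposite sides held for 3.88% of genes in T and B cells, 2.28% in T cells and monocytes with macrophages, 3.09% in CD8 T and Treg cells, 2.66% in CD8 T and gamma-delta T cells and 3.45% in Treg and gamma-delta T cells. Shares were taken only for pairs of cell sets in which a member was found. The 6 cases therefore cannot be set against an expected number. For Ufm1 the cKO effect (log2) was −0.07 in T cells and 0.25 in B cells, a difference of −0.32 that was not tested. Ufm1 in T cells minus monocytes with macrophages differed by −0.13, and the test of this difference gave −0.17 ± 0.15 (edgeR, adjusted p = 1.0). Within T cells, the Ufm1 effect in CD8 T cells minus that in Treg cells was −0.66, and minus that in gamma-delta T cells −0.70. The Ufc1 effect in CD8 T cells minus that in gamma-delta T cells was −0.45, and the Cdk5rap3 effect in Treg cells minus that in gamma-delta T cells was 0.73. These 4 differences between T-cell gates were not tested, and gamma-delta T cells were few, with 38 UMIs of Cdk5rap3 in all 4 libraries. Scaled as between gates, Ufm1 in B cells overlapped, at 77.4 and 83.9 CPM in cKO and 57.4 and 79.1 CPM in WT. So did Ufc1 in gamma-delta T cells, at 69.3 and 84.1 CPM in cKO and 68.5 and 73.0 CPM in WT.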

How the results depend on the processing

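Members called between cKO and WT stayed at 0 in T cells, in the other lineages and in the difference of T cells from monocytes with macrophages under all alternatives run. Of 532 repeats of gate contrasts 451 kept direction and call, 78 lost the call and 3 turned, all with library totals: Ufm1 in non-classical monocytes −0.041, Ufc1 in Treg cells 0.055 and Ufc1 in cDC2 −0.0061. Leaving out 1 library leaves a lone sample in an arm, taken to vary like the rest. Ufl1 then ranged from −0.18 to 0.23 in T, −0.093 to 0.23 in CD8 T, −0.21 to 0.17 in NK, −0.14 to 0.95 in conventional CD4 T, −0.47 to 0.74 in Treg and −1.74 to 0.077 in gamma-delta T cells, −0.28 to 0.0093 for T minus monocytes with macrophages, and Cdk5rap3 from −0.15 to 0.056 in T cells. Ufl1 in Treg cells was −0.20 without high-UMI cells and −0.044 without shared barcodes, an alternative chosen after seeing the data.

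Cycling T cells had 0 members called with DESeq2, stricter gates, no filter or high-UMI cells left out, 2 with library totals, and 0 to 1 without 1 library. Cycling monocytes and macrophages had 1 with DESeq2, RLE scaling, library totals, stricter gates or high-UMI cells left out, and 1 to 2 without 1 library. The macrophage Ufsp2 share was 29.5% unthinned and 4.54% at 1000 UMIs.

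Genes called in cKO against WT moved most. DESeq2 called 1 in T, 1 in CD8 T, 1 in NK, 4 in B, 7 in monocytes with macrophages and 1 for the difference of effects. Without the filter there were 75 in T, 65 in CD8 T, 73 in conventional CD4 T, 39 in Treg, 28 in gamma-delta T, 77 in NK, 121 in B, 61 in dendritic cells, 136 in monocytes with macrophages and 49 for the difference. Without 1 library these were 3 to 38, 1 to 22, 41 to 107, 0 to 6, 5 to 59, 0 to 55, 0 to 170, 0 to 43, 0 to 9 and 4 to 66. Conventional CD4 T cells (9 genes) had 2 without high-UMI cells, 4 without shared barcodes and 0 with stricter gates; B cells had 1 without high-UMI cells. The Pdcd1 split (871 genes) gave 1351 unfiltered and 214 to 761 without 1 library, and the T cycling split (3527) gave 2215 with DESeq2, 2290 without high-UMI cells and 2567 to 3317 without 1 library. The cause of these changes was not tested.

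Replicate numbers are shared by label only, with same-number correlations of −0.04 to 0.21 over 2 pairs. With the replicate block 50 genes were called in conventional CD4 T cells, 5 in Treg, 3 in B and 1 in dendritic cells, and with the numbers crossed, chosen after seeing the data, 5 in conventional CD4 T, 16 in NK and 3 in B cells.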
